A study of Mus musculus with 27 samples.

Results

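Oxidative phosphorylation subunits are the proteins of the respiratory chain (complexes I to IV) and of ATP synthase (complex V), and 77 of the genes that encode them in the nucleus are described here in CD8+ T cells sorted from mouse tumours. The genes were chosen by name from the 47729 gene rows of the count table: 95 symbols fitted the usual names of these subunits, 6 of them carried a pseudogene ending and 12 more had a mean below 10 CPM (read counts after scaling for library size). The 77 genes divide into 36 of complex I, 4 of complex II, 9 of complex III, 12 of complex IV and 16 of complex V. Ndufa4 was counted with complex IV, where its protein resides, although its name places it in complex I; that placement was made after its values had been seen. The excluded symbol nearest to the threshold was Atp5s at 8.52 CPM, and the included gene nearest to it was Ndufb4 at 35.2 CPM.

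The 27 libraries were made from total RNA of CD8+ T cells of mice with MC38 tumours (a mouse colon carcinoma line), sorted by fluorescence on the leukocyte marker CD45, the T cell markers CD3 and CD8, and the receptors PD-1 and KLRG1. T cells put PD-1, which restrains them, on their surface after activation, and KLRG1 is found on effector cells. Mice received an isotype control (Iso) or a combination therapy labelled Tri, which the series text calls TCT and whose components the sources used here do not list. Under Tri there were 5 libraries of PD1+KLRG1+ cells, 5 of PD1+KLRG1- cells, 4 of PD1-KLRG1+ cells and 5 of PD1-KLRG1- cells. Under Iso there were 4 libraries of PD1-KLRG1+ cells and 4 of PD1-KLRG1- cells, so PD-1 could be compared only under Tri. The labels give no mouse strain, age or sex and do not say that libraries of a group came from separate mice, so the p-values measure the spread between these libraries, which may be technical.

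Complex I (NADH dehydrogenase) and complex II (succinate dehydrogenase) pass electrons to ubiquinone, complex III passes them to cytochrome c, and complex IV (cytochrome c oxidase) passes them to oxygen. Complexes I, III and IV pump protons across the inner mitochondrial membrane, and complex V uses the gradient to make ATP. All of the complexes except complex II also contain subunits encoded by mitochondrial DNA. Activated T cells use both this pathway and glycolysis, and memory T cells are known for their reliance on respiration.

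Nuclear respiratory genes are known for promoters that bind NRF1, ETS-family factors and YY1, so the letters of these motifs were searched on both strands of the RefSeq promoter windows (GRCm38.p6), each running from 250 bases before to 50 bases after a start. Windows were found for 62 of the 77 genes. The NRF1-type motif was in 16 of the 62 windows (25.8%) and in 4.78% of all 27025 windows of the same length. The ETS-type letters CCGGAAG were in 15 (24.2%) and in 9.12% of all windows, and the YY1-type letters AAGATGGCG were in 6 (9.68%) and in 1.49% of all windows. The palindromic form of the NRF1-type motif, a subset of it, was in 5 (8.06%) and in 0.977% of all. The letters CCAAT were in 26 (41.9%) and in 37.9% of all, and TATAAA was in 5 (8.06%) and in 14.2% of all. Both the NRF1-type and the ETS-type letters were in 4 windows (6.45%), those of Atp5h, Atp5k, Cox6a1 and Sdhd, and in 0.932% of all windows.

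The promoters of 3 genes are shown because Ndufa4 and Atp5h are the genes on which the PD-1 comparison turns and Cox6a1 holds the NRF1-type motif at a pair of places; they were chosen after the values had been seen. Each stretch is written 5′ to 3′ on the gene's strand (minus for all 3), lies in no annotated exon, and has the NRF1-type motif in capitals. The Ndufa4 stretch is chr6:11907498-11907700, the Atp5h stretch is chr11:115419963-115420127 and the Cox6a1 stretch is chr5:115348982-115349129, all on GRCm38.p6.
Ndufa4: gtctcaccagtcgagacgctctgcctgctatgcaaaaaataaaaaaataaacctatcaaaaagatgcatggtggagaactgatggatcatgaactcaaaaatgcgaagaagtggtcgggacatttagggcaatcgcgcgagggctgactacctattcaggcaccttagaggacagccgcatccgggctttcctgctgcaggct
Atp5h: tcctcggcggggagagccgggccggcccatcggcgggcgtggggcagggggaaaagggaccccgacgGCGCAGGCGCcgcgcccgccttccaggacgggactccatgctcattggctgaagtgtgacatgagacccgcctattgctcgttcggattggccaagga
Cox6a1: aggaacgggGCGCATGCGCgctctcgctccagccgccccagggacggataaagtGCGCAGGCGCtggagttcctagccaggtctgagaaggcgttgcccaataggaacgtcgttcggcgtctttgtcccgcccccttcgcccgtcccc
The Ndufa4 window held none of the NRF1-type, ETS-type and YY1-type letters. The ETS-type letters of Atp5h and Cox6a1 lie nearer to the start than the printed stretches reach. A match in letters is a description and was not tested as a binding site.

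Iso PD1-KLRG1+ library 3 had 93198 counts in total, and the other 26 libraries had 6991521 to 26284630. In that library the 77 genes summed to 1273 counts with a median of 13, and 3 of them had no count. Among 6951 well-expressed genes, defined by a median level of 20 CPM or more, the share without a count was 9.81% to 29.4% in the 4 Iso PD1-KLRG1+ libraries and at most 3.57% in every other library. The 7 T cell markers of the gate were present in every group. Summed myeloid markers (15 genes) reached 10718 CPM in Iso PD1-KLRG1+ and 4176 CPM in Iso PD1-KLRG1- but at most 778 CPM under Tri, and summed tumour or stroma markers (12 genes) reached 3730 CPM in Iso PD1-KLRG1+ and at most 37.7 CPM under Tri. In addition, 1 or 2 libraries of each group carry an RNA number in their deposited name (Iso replicate 4, Tri replicates 4 and 5); the labels do not say what the number marks, and the fits hold a term for it.

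Levels below are CPM after TMM scaling, a correction for differences in library composition. The exceptions are the levels per kilobase and the means over all libraries, which are CPM scaled for library size only. Summed over the 77 genes, the level was 18954 ± 4702 CPM (SD, n = 4) in Iso PD1-KLRG1- and 13859 ± 2151 CPM (n = 4) in Iso PD1-KLRG1+. Under Tri the PD1+ groups had 15761 ± 2167 CPM (KLRG1+, n = 5) and 14433 ± 2929 CPM (KLRG1-, n = 5), and the PD1- groups had 16750.2 ± 4997 CPM (KLRG1+, n = 4) and 15555 ± 2787 CPM (KLRG1-, n = 5). The groups overlapped throughout, with single libraries from 10969 CPM (Tri PD1+KLRG1- 4) to 24405 CPM (Iso PD1-KLRG1- 2), a 2.22-fold range. Complex IV varied most between libraries, 3.17-fold, and complex II least, 1.71-fold. Iso PD1-KLRG1- had the highest group mean for 57 of the 77 genes, and Iso PD1-KLRG1+ had the lowest for 46 and Tri PD1+KLRG1- for 19. This ranking was not made over all genes. Of all 14059 genes tested, 34.6% were fitted higher in Iso PD1-KLRG1+ than in Iso PD1-KLRG1- (median log2 difference -0.52). Of the 77, 13.0% were (median -0.60). The group means are not adjusted for the numbered libraries, 1 in each Iso group and 2 in Tri PD1+KLRG1-. In bulk RNA, fewer cells of a type and less RNA per cell cannot be told apart.

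**Figure D1:**
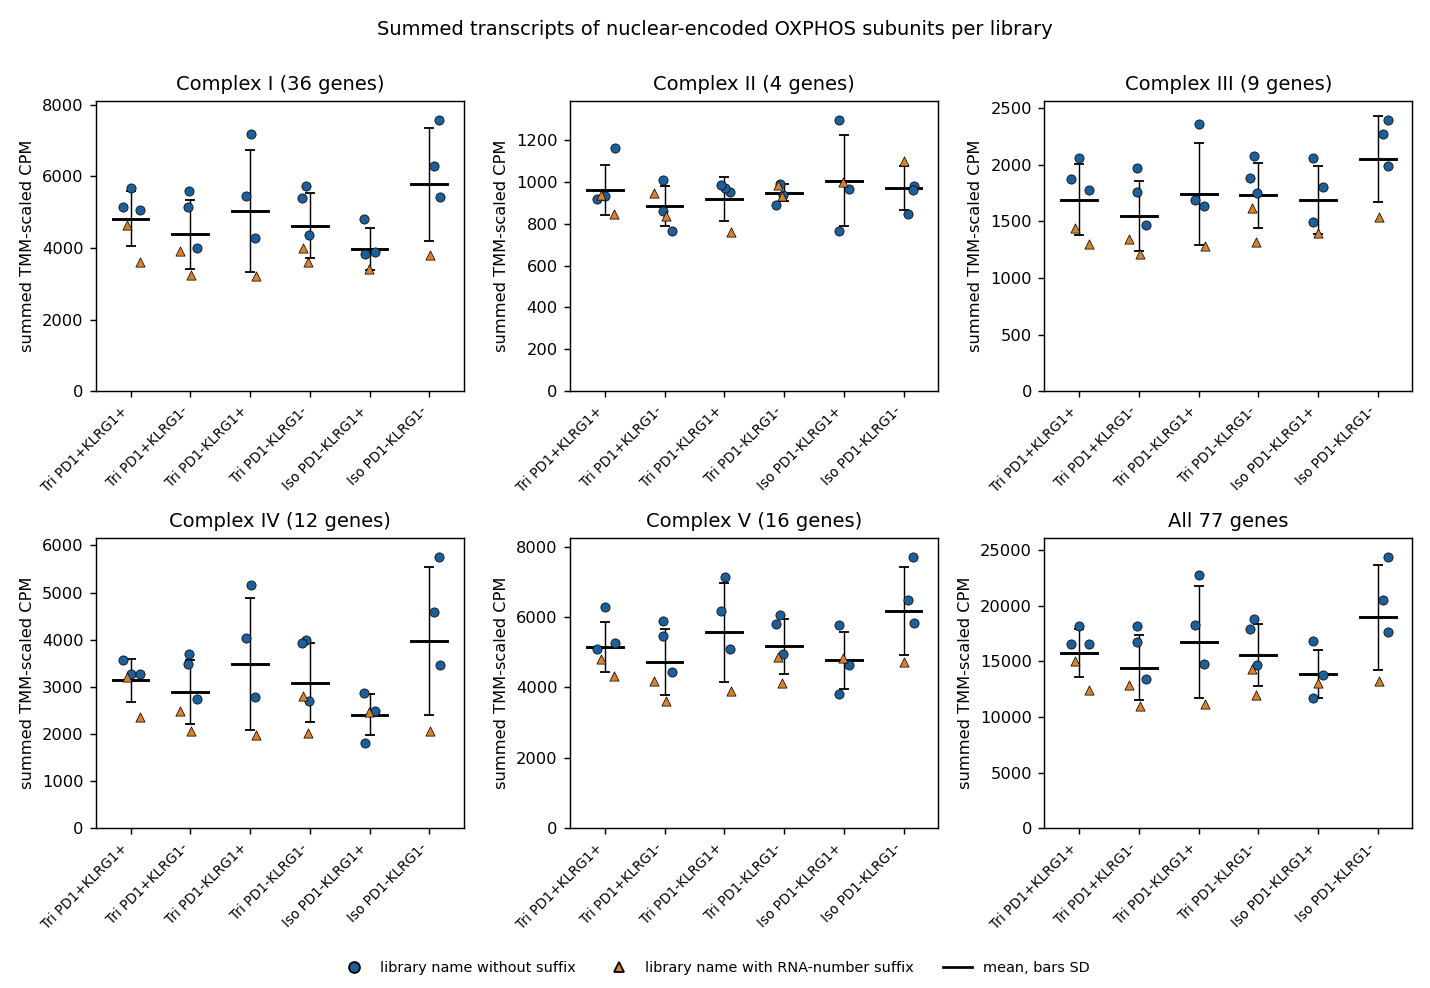
Summed TMM-scaled CPM of the nuclear-encoded subunits of each complex, by group; points are libraries (triangles carry an RNA number in the name) and bars are mean and SD. Complex II spans the narrowest range (1.71-fold from lowest to highest library) and complex IV the widest (3.17-fold), and the groups overlap.

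Compared per kilobase of transcript, so that genes of different length can be set side by side, complexes III, IV and V stood above I and II. The median level was 326 CPM per kb for complex III, 384 for complex IV and 320 for complex V, and 143 for complex I and 133 for complex II. The highest single genes were Cox8a (704 CPM per kb) and Cox6a1 (685), both small subunits of complex IV, followed by Atp5h (607), a stalk subunit of ATP synthase, and Atp5b (583), its catalytic beta subunit. The lowest were Sdhc (32.3), a membrane anchor of complex II, and the complex I genes Ndufb4 (36.3), Ndufs1 (45.6) and Ndufc1 (46.3). Ndufb4c, which the name rule also took in, is annotated as a processed pseudogene that may share reads with Ndufb4, so the levels of both are uncertain.

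By mean CPM, which is not corrected for length, the extremes within complexes were Ndufa13 (273 CPM) and Ndufb4 (35.2) in complex I, and Sdha (359), the flavoprotein, and Sdhc (102) in complex II. In complex III they were the core protein Uqcrc1 (397) and the Rieske protein Uqcrfs1 (124). In complex IV they were Cox4i1 (398) and Cox7a2l (110.1), a factor of supercomplexes, and in complex V Atp5b (1117.5) and Atp5g2 (53.8). Subunits with tissue-specific copies were represented by the common form: Cox4i2, Cox6a2, Cox6b2 and Cox7a1 had means of 0.00997, 0.743, 0.658 and 1.03 CPM, and Cox8b and Ndufa4l2 had no count in any of the 27 libraries. Of the 3 genes for the membrane-ring c subunit of ATP synthase, Atp5g3 had 474 CPM per kb, Atp5g1 379.6 and Atp5g2 122.

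Atp5b and Atp5a1, the catalytic core of ATP synthase, were the steadiest genes. Their SD within groups was 0.197 and 0.228 on the log2 scale, and their group means lay within 1.11-fold and 1.10-fold of each other. The genes that varied most within groups were Cox7a2l (1.25), Ndufs4 (1.21) and Atp5g2 (1.15). Each had no count in 1 Iso PD1-KLRG1+ library, number 4 for Cox7a2l and the shallow number 3 for Ndufs4 and Atp5g2. The SD was taken on log2(CPM + 1), so a library at 0 widens it. The largest ratios between group means were 4.8-fold for Atp5g2, 3.98-fold for Ndufa5, 3.96-fold for Ndufa4 and 3.63-fold for Cox7a2l. In Atp5g2, Ndufa5 and Cox7a2l the lowest group was Iso PD1-KLRG1+, the group with many genes at 0, and the highest was Iso PD1-KLRG1-. Ndufa4 was lowest in Tri PD1+KLRG1-.

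**Figure D2:**
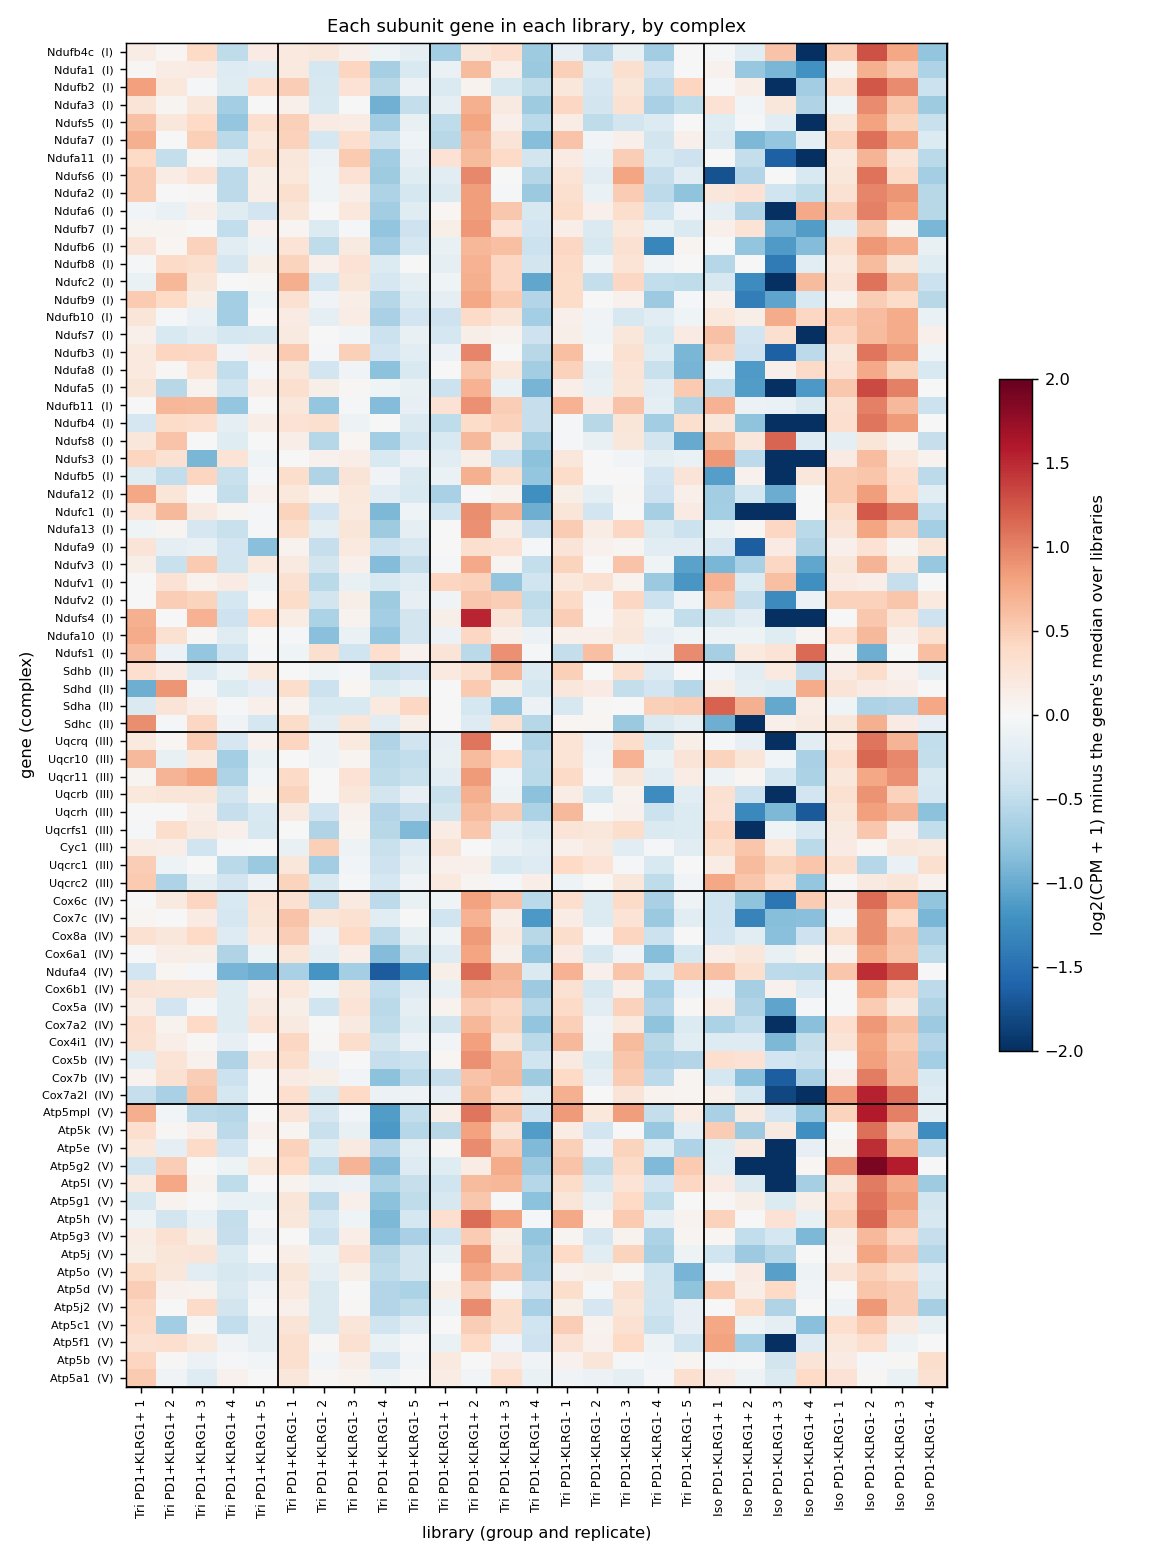
Levels of 76 of the 77 genes (rows, ordered by complex) in each of the 27 libraries (columns, by group); colour is log2(CPM + 1) minus the median of that gene over the libraries. Iso PD1-KLRG1+ libraries 2, 3 and 4 hold the deepest blue cells, Iso PD1-KLRG1- libraries 2 and 3 are red over most genes, and the Ndufa4 row is blue in the Tri PD1+KLRG1- libraries.

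The first question was how PD1+ cells differ from PD1- cells within the Tri tumours. In KLRG1- cells 1 of the 77 genes passed the test (edgeR's quasi-likelihood test over 14059 genes, Benjamini-Hochberg adjusted p under 0.05), and it was Ndufa4, which was lower in PD1+ cells. Of all genes tested, 1.56% were called in this comparison and 0.939% were called lower. The median of the 77 log2 differences (PD1+ minus PD1-) was -0.10, with 58 negative, against 0.06 over all genes. In KLRG1+ cells none of the 77 passed, and none by DESeq2, where 1.2% of all genes were called, and the median difference was 0.04. At an unadjusted p under 0.05 there were 3 of the 77, against 1575 of all 14059 genes.

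Ndufa4 encodes a subunit of cytochrome c oxidase. In Tri PD1+KLRG1- libraries 1 to 5 its level was 101, 69.4, 98.5, 49.6 and 64.2 CPM, and in Tri PD1-KLRG1- libraries 1 to 5 it was 259, 171, 234, 132 and 229 CPM. Every PD1+KLRG1- library lay below every PD1-KLRG1- library. The difference was -1.46 ± 0.25 on the log2 scale (SE; edgeR adjusted p = 0.000958). Over the alternatives tried it ran from -1.56 to -1.21 and was called in 19 of 20; without the libraries that carry an RNA number it was -1.29 with an edgeR adjusted p of 0.112.

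In KLRG1+ cells Ndufa4 was at 122, 164, 155, 83.0 and 79.2 CPM in the PD1+ libraries and at 173, 346, 256 and 129.7 CPM in the PD1- libraries. The 2 sets overlapped, the lowest PD1- library lying within the range of the PD1+ libraries. The log2 difference was -0.80 ± 0.26 (edgeR adjusted p = 0.159), and the interaction, the difference between the 2 PD-1 contrasts, was 0.66 ± 0.36 (edgeR adjusted p = 1), so the 2 contrasts were not shown to differ. Their mean, a contrast added after the values of Ndufa4 had been seen, was -1.13 ± 0.18 (edgeR adjusted p = 0.000152).

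Under Iso, Ndufa4 was at 233, 446, 374 and 159 CPM in PD1-KLRG1- and at 238, 198, 111 and 109.8 CPM in PD1-KLRG1+. All 8 Iso libraries lay above all 5 Tri PD1+KLRG1- libraries. As a share of the summed complex IV level, Ndufa4 in Tri PD1+ cells was 2.62% ± 0.17 (SD, n = 5) without KLRG1 and 3.81% ± 0.95 (n = 5) with it. In the 4 PD1- groups the mean share was 6.46% to 7.58%. Ndufa4 was the single called gene among the 12 of complex IV, whose median PD-1 difference in KLRG1- cells was -0.05.

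**Figure D3:**
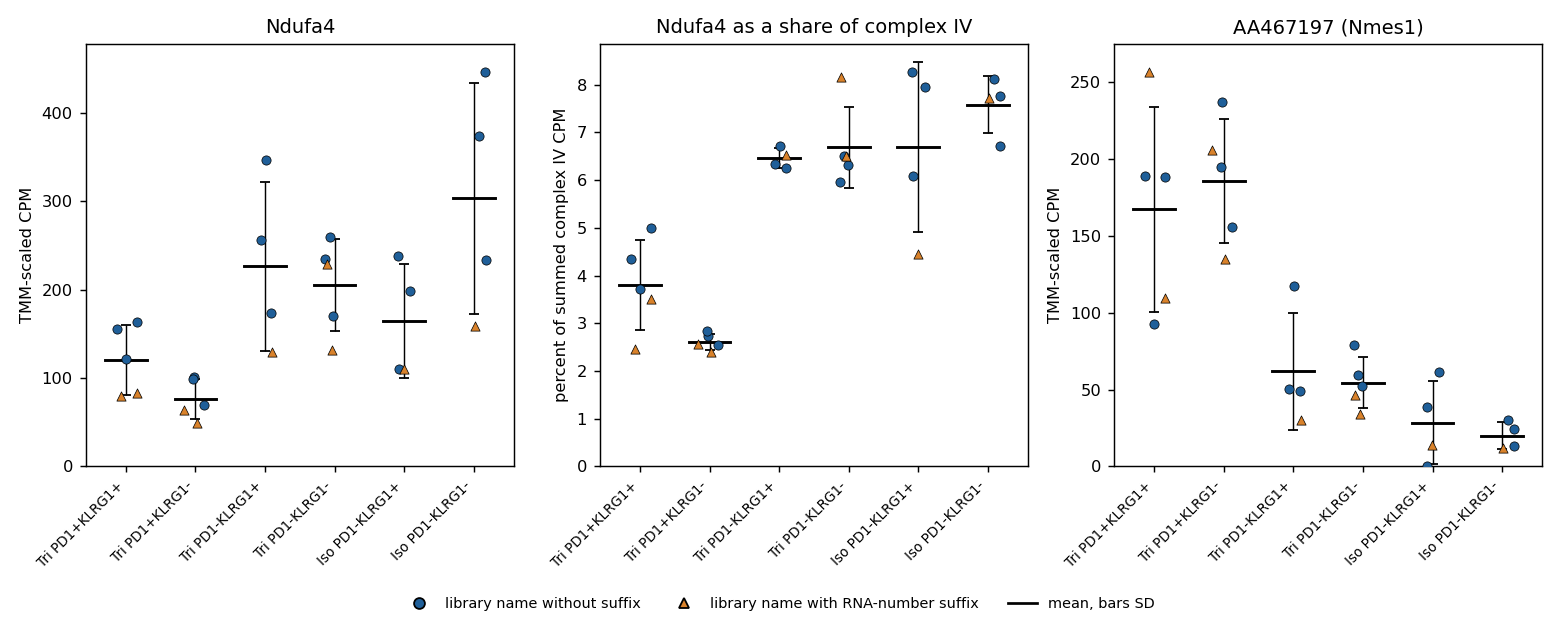
Ndufa4 in TMM-scaled CPM, Ndufa4 as a percent of the summed complex IV level, and AA467197 (Nmes1) in TMM-scaled CPM, by group; points are libraries (triangles carry an RNA number in the name) and bars are mean and SD. Ndufa4 is lowest in the Tri PD1+KLRG1- libraries (49.6 to 101 CPM), and AA467197 is highest in the PD1+ groups.

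AA467197, whose human counterpart is known to take the place of NDUFA4 in cytochrome c oxidase, is not among the 77 genes and was examined after the values of Ndufa4 had been seen. It was at 237, 156, 195, 135 and 206 CPM in Tri PD1+KLRG1- and at 59.5, 52.6, 78.9, 34 and 46.6 CPM in Tri PD1-KLRG1-. Every PD1+ library lay above every PD1- library, a log2 difference of 1.82 ± 0.44 (edgeR adjusted p = 0.0307); it was called in 11 of 20 alternatives, with adjusted p between 3.17e-05 and 0.459. In KLRG1+ cells it was at 92.8, 188, 189, 109.8 and 257 CPM in PD1+ and at 49.2, 117, 50.3 and 30.4 CPM in PD1- libraries, which overlapped, and the log2 difference was 1.62 ± 0.49 (edgeR adjusted p = 0.115). Myeloid cells are also known to express this gene. The summed myeloid markers were 238 to 670.1 CPM in Tri PD1+KLRG1- and 211 to 562 CPM in Tri PD1-KLRG1-, with medians of 460.1 and 251.2 CPM, 0 of 15 called, 9 of 15 positive and Adgre1 without a count in the latter. In KLRG1+ cells they were at 230 to 778 CPM (median 503) in PD1+ and 177 to 234 CPM (median 198) in PD1- libraries, with 0 of 15 called, 13 of 15 positive and Adgre1 without a count in both. In the mean of the 2 PD-1 contrasts, which is also given for Ndufa4 and Atp5h, 2 of 15 myeloid markers were higher (Cd74 and Fcer1g), with 13 of 15 positive and a median log2 difference of 0.82. The part of these cells in the results for Ndufa4, AA467197 and Atp5h was not tested.

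Atp5h, a subunit of the stalk of ATP synthase, was the other gene called in the mean of the 2 PD-1 contrasts, in which 4.94% of all genes were called and 2.64% were called lower. In KLRG1+ cells it was at 309, 257, 303, 239 and 326 CPM in PD1+ and at 418, 723, 582 and 328 CPM in PD1- libraries. All PD1+ libraries lay below all PD1- libraries, the nearest pair being 326 and 328 CPM. In KLRG1- cells it was at 389, 258, 313, 178 and 258 CPM in PD1+ and at 559.6, 339, 475, 293 and 347 CPM in PD1- libraries, which overlapped. The mean log2 difference was -0.62 ± 0.15 (edgeR adjusted p = 0.0128); without Tri PD1-KLRG1+ library 2 it was -0.51 (edgeR adjusted p = 0.0512). Neither contrast alone passed (-0.71 ± 0.22, edgeR adjusted p = 0.131, and -0.53 ± 0.20, edgeR adjusted p = 0.28).

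In complexes II and III the genes with the smallest p for PD-1 in KLRG1- cells were Sdhb, the iron-sulfur subunit (-0.31 ± 0.16, edgeR adjusted p = 0.607), and Uqcr10 (-0.46 ± 0.23, edgeR adjusted p = 0.572).

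The next question was how KLRG1+ cells differ from KLRG1- cells. Under Tri none of the 77 genes passed in either PD-1 class. In PD1- cells 0.0% of all genes were called, and all 77 fitted log2 differences lay within 0.5 of 0, with a median of 0.02; none had an unadjusted p under 0.05, against 675 of all genes. In PD1+ cells, where 0.0569% of all genes were called, the median was 0.16 with 64 of 77 positive, against -0.07 with 45% positive over all genes. An unadjusted p under 0.05 was found for 2 of the 77, against 930 of all 14059 genes. Ndufa10, 1 of these 2 and an accessory subunit of complex I, was at 258, 190.2, 156, 129 and 153 CPM in KLRG1+ and 151, 85.3, 140.4, 89.4 and 118 CPM in KLRG1- libraries. The sets overlapped, and the log2 difference was 0.59 ± 0.21 (edgeR adjusted p = 0.422; DESeq2 called it). The 95% half-width of the Ndufa10 difference was 0.40, and differences that miss the threshold do not show that the cells are alike.

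Under Iso, 8 of the 77 genes (10.4%) were lower in KLRG1+ than in KLRG1- cells and none was higher. Of all genes, 8.66% were called and 7.43% were called lower, and the median difference was -0.60 for the 77 and -0.52 over all genes; the median of all genes moved by 0.16 with median-ratio (RLE) scaling. The 8 were Ndufa5, Ndufb6 and Ndufa1 of complex I, Uqcrh of complex III, Cox7b, Cox7a2 and Cox7c of complex IV, and Atp5mpl of complex V. Among complex I genes the 29 counted as accessory, with the processed pseudogene Ndufb4c, had a median of -0.73 with 29 negative. The 7 core subunits, which carry the electron path, had a median of 0.04 with 3 negative. Several core genes are long (Ndufs1 2590, Ndufv2 1697 and Ndufv1 1661 bases, against 758 for Ndufs7). In this contrast the 25 of the 77 genes with at most 600 bases had a median of -0.81. The 15 of the 77 with at least 1500 bases had -0.06. The part of length in this split was not tested. In complex II, Sdha was higher by 0.58 ± 0.31 without passing (edgeR adjusted p = 0.229).

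Ndufa5, an accessory subunit of the peripheral arm, was at 40.6, 25.8, 9.21 and 25.3 CPM in Iso PD1-KLRG1+ and at 83.4, 145, 116 and 57.2 CPM in Iso PD1-KLRG1-. Every KLRG1+ library lay below every KLRG1- library, a log2 difference of -1.86 ± 0.44 (edgeR adjusted p = 0.00767). The value of 9.21 CPM, in the shallow KLRG1+ library 3, rests on a count of 1. Cox7b was at 161, 115, 64.5 and 130.2 CPM in KLRG1+ and at 224, 418, 311 and 165 CPM in KLRG1- libraries. These sets did not overlap either, the nearest pair being 161 and 165 CPM; the log2 difference was -1.11 ± 0.29 (edgeR adjusted p = 0.0154).

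Cox7a2 was at 134, 147, 46.1 and 116 CPM in KLRG1+ and at 261, 380.3, 317 and 125 CPM in KLRG1- libraries, with library 4 of KLRG1- inside the KLRG1+ range (log2 difference -1.12 ± 0.29, edgeR adjusted p = 0.0163). The other 5 also overlapped, with log2 differences from -1.15 (Atp5mpl, edgeR adjusted p = 0.0331) to -0.82 (Ndufa1, edgeR adjusted p = 0.0490). The number called depended on the libraries: it was 1 without Iso PD1-KLRG1- library 2, 19 without Iso PD1-KLRG1+ library 4, and 0 in a fit of the 2 groups alone. The Iso PD1-KLRG1+ libraries are the ones with many genes at 0 and the widest range of other cells' markers (myeloid 230.3 to 10718 CPM against 870.1 to 4176 CPM; tumour or stroma 82.9 to 3730 CPM against 62.1 to 119.9 CPM); their part in these differences was not tested.

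Tri was compared with Iso to ask how the therapy's PD1- cells differ from the control's. In KLRG1- cells none of the 77 genes passed (0 by DESeq2), where 0.804% of all genes were called. At an unadjusted p under 0.05 there was 1 of the 77, against 1125 of all 14059 genes. The median difference (Tri minus Iso) was -0.24 with 68 of 77 negative, against -0.09 over all genes. The gene with the smallest p was Ndufb10 of complex I, at 159, 140.2, 118, 127 and 139 CPM under Tri and 212, 227, 247 and 134 CPM under Iso. The sets overlapped in Iso library 4, and the log2 difference was -0.50 ± 0.23 (edgeR adjusted p = 0.578).

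In KLRG1+ cells 2 of the 77 genes were higher under Tri, Ndufs4 and Ndufa11, both accessory subunits of complex I. Of all genes 6.08% were called and 5.46% were called higher, and the median difference was 0.35 for the 77 and 0.34 over all genes. Ndufs4 was at 101, 271, 112 and 68.5 CPM under Tri and at 72.2, 80.2, 0 and 16.8 CPM under Iso, a log2 difference of 1.58 ± 0.47 (edgeR adjusted p = 0.0428). Ndufa11 was at 142, 181, 152 and 89.4 CPM under Tri and at 116, 83.6, 36.9 and 27.6 CPM under Iso, a log2 difference of 1.08 ± 0.33 (edgeR adjusted p = 0.0480).

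Both genes overlapped between treatments, and each was at its lowest in Iso libraries 3 and 4. Neither was called without any 1 of the 4 Tri libraries, with the replicate number as a block (edgeR adjusted p = 0.056 for both), with RLE scaling, which moved the median of all genes by -0.19, or without the 3 libraries that stand apart (Iso PD1-KLRG1+ 3 and 4 and Tri PD1-KLRG1- 5). The interaction of KLRG1 and treatment called none of the 77 (1, Ndufa5, by DESeq2), where 3.59% of all genes were called. At an unadjusted p under 0.05 there were 15 of the 77, against 2568 of all 14059 genes. This comparison and that of KLRG1 under Iso share the Iso PD1-KLRG1+ libraries. In KLRG1+ cells 14 of 15 myeloid markers were negative for Tri against Iso (median log2 difference -4.02), and 4 were called lower. In KLRG1- cells 15 of 15 were negative (median -2.59), and 2 were called lower. Of 8 tumour or stroma markers tested, 2 were called lower in KLRG1+ cells and 1 in KLRG1- cells. The shares of all genes called lower were 0.619% and 0.541%. The part of these cells in the differences between Tri and Iso was not tested.

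**Figure D4:**
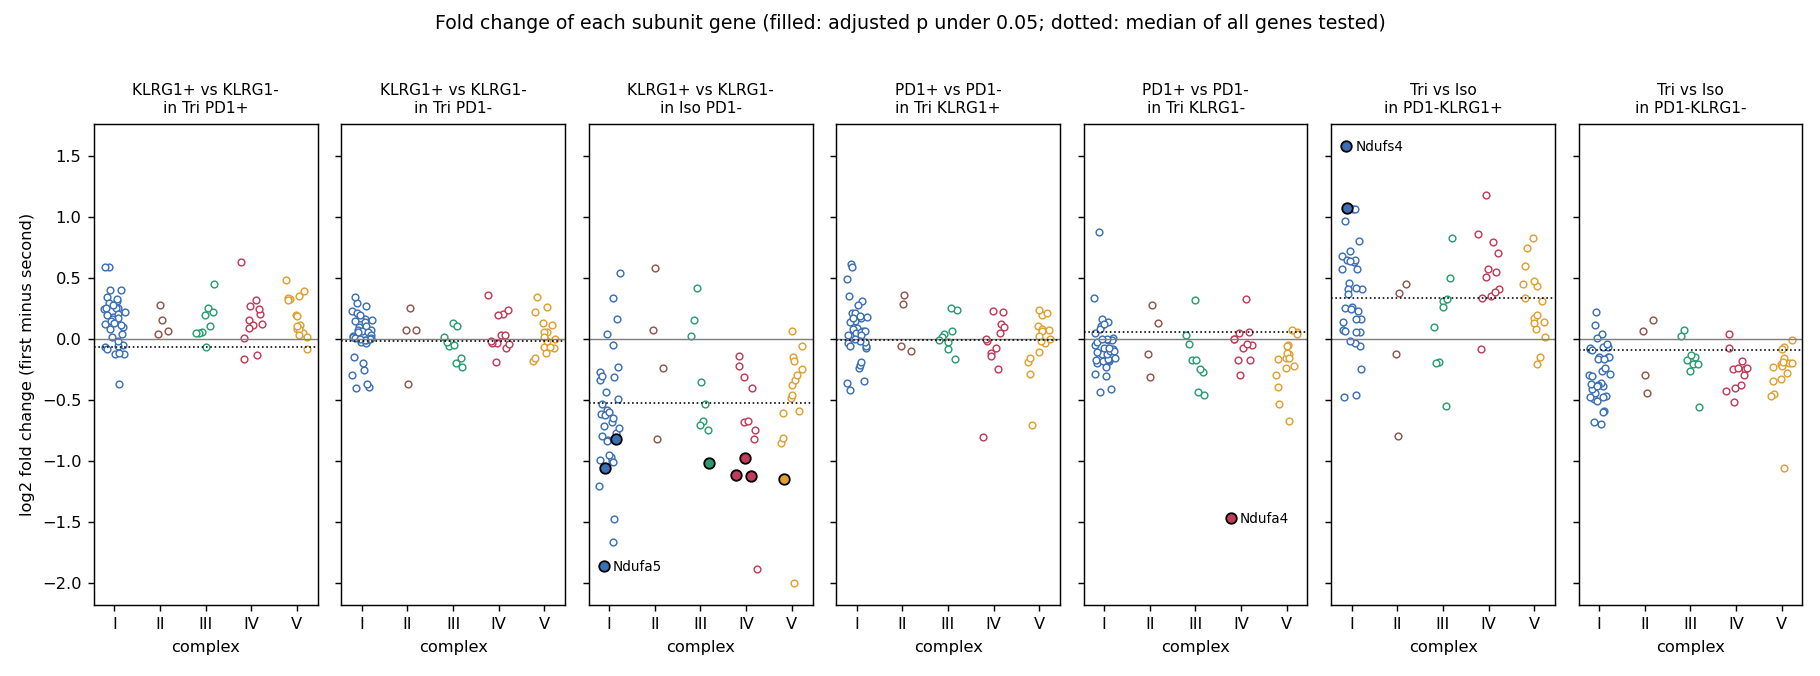
Log2 differences of the 77 genes in each comparison, by complex; each point is a gene, filled points passed the test and the dotted line is the median of all genes tested. The called genes are Ndufa4 in PD1+ against PD1- KLRG1- cells, 8 lower in Iso KLRG1+ cells and 2 higher under Tri in KLRG1+ cells.

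More of the 77 genes were called by library name than in any comparison of groups. In libraries whose name carries an RNA number 15 of the 77 genes were lower and none was higher, where 0.982% of all genes were called and 0.854% were called lower; this contrast was added after the summed levels had been seen. The median of the 77 was -0.52 with 74 negative, against 0.05 over all genes. The 15 were Ndufa1, Ndufa2, Ndufa3, Ndufa13, Ndufb11 and Ndufs8 of complex I, Uqcrh, Uqcr10 and Uqcr11 of complex III, Ndufa4, Cox4i1, Cox5b and Cox6a1 of complex IV, and Atp5d and Atp5g3 of complex V. No gene of complex II was called. The number called fell to 0 without Iso PD1-KLRG1- library 4 or without Tri PD1-KLRG1+ library 4, each of which carries an RNA number.

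Atp5d, the delta subunit of ATP synthase, had the smallest p, with a log2 difference of -0.59 ± 0.11 (edgeR adjusted p = 0.0131). In Iso PD1-KLRG1- it was at 363, 536 and 514 CPM in the plain libraries and 291 CPM in library 4, and in Tri PD1-KLRG1- at 467, 357 and 453 CPM in the plain libraries and 282 and 209 CPM in libraries 4 and 5. The numbered libraries were the lowest of both groups. For the sum of complex I, every numbered library lay below every plain library of its group in all 6 groups; the same held for complex III in 6, complex V in 5, complex IV in 4 and complex II in 1.

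The differences were also set against transcript length. Across the 77 genes, which share libraries and are not replicates, Spearman's rho between length and the log2 difference was 0.51 for the library names, 0.44 for KLRG1 under Iso and 0.08 for PD-1 in KLRG1- cells. For Tri against Iso it was 0.35 in KLRG1- cells and -0.31 in KLRG1+ cells, where Ndufs4 and Ndufa11 were called, and for the interaction of KLRG1 and treatment it was -0.44. In the other 5 contrasts it lay between -0.17 and 0.13. The 25 genes of at most 600 bases had a median of -0.59 for the library names, and the 15 of at least 1500 bases had -0.25. For KLRG1 under Iso the medians were -0.81 with 25 of 25 negative and -0.06 with 8 of 15 negative. These length limits were set after values had been seen, and the part of length in the differences was not tested.

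**Figure D5:**
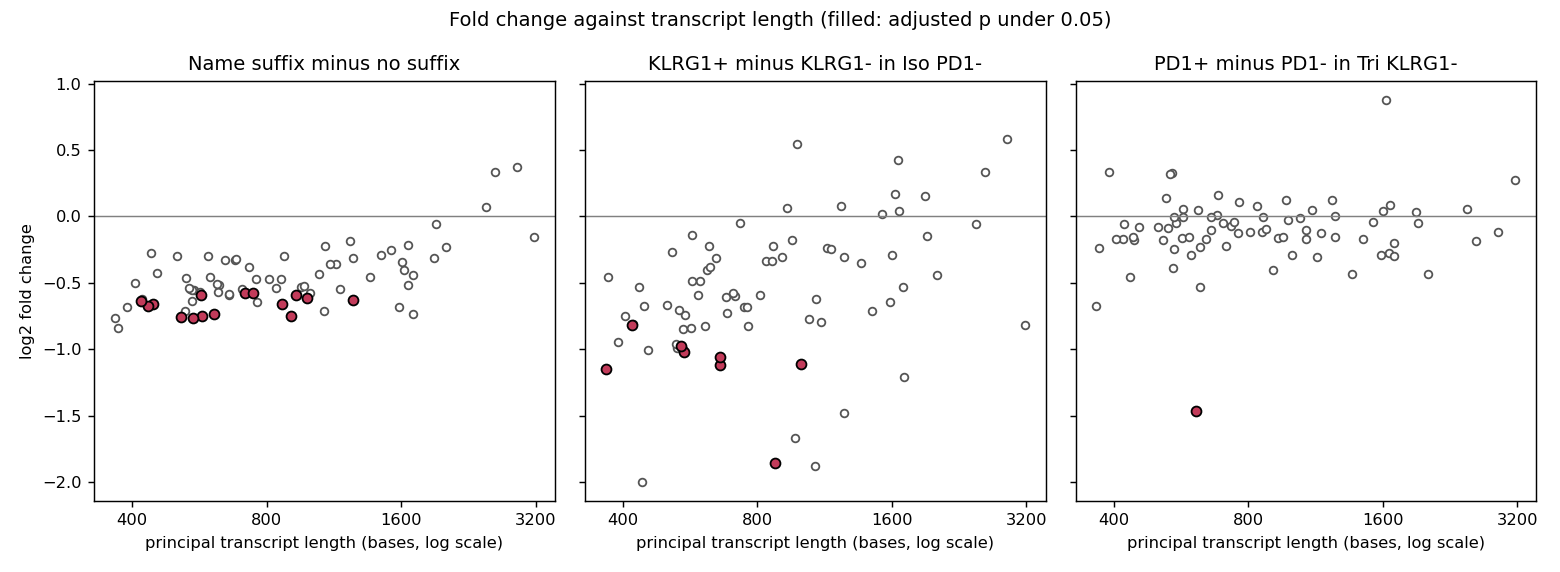
Log2 difference against transcript length (bases, log axis) for the 77 genes in 3 comparisons; each point is a gene and filled points passed the test. Short transcripts lie lowest for the library names (rho 0.51) and for KLRG1 under Iso (rho 0.44), while rho is 0.08 for PD-1 in KLRG1- cells.

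The other genes of respiration were read from lists. Of the 13 subunits encoded by mitochondrial DNA, none passed in any comparison of PD-1 or KLRG1. For Tri against Iso in KLRG1+ cells 4 of 13 were lower (mt-Cytb, mt-Nd1, mt-Atp8 and mt-Co1), where 0.619% of all genes were called lower. All 13 were negative, with a median of -1.93, while the median of the 77 nuclear genes was 0.35. In KLRG1- cells none passed (smallest edgeR adjusted p = 0.0687), all 13 were again negative with a median of -1.66, and the nuclear median was -0.24. There 11 of the 13 had an unadjusted p under 0.05, against 1125 of all 14059 genes. mt-Cytb, the cytochrome b of complex III, differed by -2.51 ± 0.58 (edgeR adjusted p = 0.00908). Their summed level was 2580 to 86715 CPM in Iso PD1-KLRG1+ libraries, 12755 to 32436 CPM in Iso PD1-KLRG1- libraries and 3416 to 11208 CPM across the Tri libraries. Iso PD1-KLRG1- lay above every Tri library, and Iso PD1-KLRG1+ overlapped with Tri. The part of myeloid and tumour or stroma cells in these values, and in those of Cycs and Ppargc1b below, was not tested.

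Of 44 assembly factors tested, Nubpl and Uqcc3 were lower in KLRG1+ than KLRG1- cells under Iso, where 7.43% of all genes were called lower. Nubpl had no count in all 4 KLRG1+ libraries, in which 9.81% to 29.4% of well-expressed genes had none. Uqcc3 was called in 4 of 17 alternatives. Cox17 was lower in the numbered libraries, where 0.854% of all genes were called lower, and was called in 21 of 33 alternatives. Cycs, the cytochrome c that carries electrons from complex III to IV, was at 76.8, 40.2, 18.4 and 32.9 CPM in Iso PD1-KLRG1+ and at 132, 168, 218 and 154 CPM in Iso PD1-KLRG1-. Every KLRG1+ library lay below every KLRG1- library, a log2 difference of -1.91 ± 0.31 (edgeR adjusted p = 0.000267). The value of 18.4 CPM is from the shallow KLRG1+ library 3, with 93198 counts in total. Under Tri, Cycs in PD1-KLRG1+ was at 116, 200.3, 144 and 89.4 CPM, above all 4 Iso libraries of that class (1.59 ± 0.31, edgeR adjusted p = 0.00206). Vdac1, a channel of the outer membrane, was lower in Iso KLRG1+ cells (-1.42, edgeR adjusted p = 0.0440) and was called in 7 of 17 alternatives. Cycs and Vdac1 were the 2 called of 13 genes listed as carriers, where 7.43% of all genes were called lower. Higd1a, also of the 13, was lower in the numbered libraries and was called in 11 of 33 alternatives. None of the 16 genes of the tricarboxylic acid cycle was called in any comparison. Of 12 transcriptional regulators tested Ppargc1b was called for KLRG1 under Iso, for Tri against Iso in KLRG1+ cells and for their interaction. The shares of all genes called in these contrasts were 8.66%, 6.08% and 3.59%. Ppargc1b had no count in the 4 Iso PD1-KLRG1+ libraries, in which 9.81% to 29.4% of well-expressed genes had none and which all of these contrasts use.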

How the data were processed

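RNA-seq counts per gene were read from the deposited table, which the authors made from 27 libraries. Which aligner, counter, genome build and gene models were used is not given in the sources used here. DESeq2 1.26.0 is named without a role per the submitters' processing notes. Symbols were available for 47224 of 47729 identifiers (505 without), and 0 columns were unmapped. Groups came from the labels. Tests used edgeR 4.0.16 in R 4.3.3 (robust quasi-likelihood, TMM, filterByExpr at a minimum count of 10, 14059 genes), with a mean per group over all libraries and a term for the RNA number in the name, and Benjamini-Hochberg adjustment over all genes at 0.05. The members and lists were chosen with earlier results of these data known. Genes were named by rule: up to 4 called per complex and direction, otherwise the smallest p, the extremes of level, and paralogues; AA467197, the glycolysis genes, the printed promoters, the 600 and 1500 base limits and the placement of Ndufa4 were decided after values were seen. Transcript length was that of the best-supported basic GENCODE M21 transcript, a definition changed once. DESeq2 1.42.0, scaling, filters and left-out libraries were alternatives. The test was checked on simulated data. Tables and plots used Python 3.11.15, pandas 2.3.3 and matplotlib 3.10.9. The values of 1 member are not reported here.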

Additional observations from a re-analysis of the deposited data

Results flagged for a closer look

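Of 120 groups of libraries examined for a value far from the others, 3 held one, and chance alone gives about 1 in 20. The summed level of complex II was 1161 CPM in Tri PD1+KLRG1+ library 2, above the other 4 libraries of its group, and 759 CPM in Tri PD1-KLRG1+ library 4, below the other 3. Atp5b was at 1458 CPM in Tri PD1+KLRG1+ library 1, above the other 4.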

How the results depend on the processing

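The summed levels (282 comparisons with an alternative) and the medians of the 77 genes (248) moved by less than the spread between replicates. Medians near 0 changed sign when 1 library was left out. They ran from -0.06 to 0.23 for PD-1 in KLRG1+ cells, -0.14 to 0.10 for KLRG1 in Tri PD1- cells and -0.10 to 0.07 for the mean PD-1 contrast. None of the named genes reversed, but they were named as called or by smallest p, which made a reversal unlikely. Of their comparisons with an alternative, 1794 kept their side of the threshold, 409 lost it and 18 gained it. Of the counts of called genes 194 stayed within 1.5 times, and the other 54 follow. For KLRG1 under Iso (8 called) the count was 3 with RLE scaling, 3 with no count filter, 14 at a minimum count of 50, 4 with no name term, 15 in libraries without an RNA number, 0 with only the groups compared and 21 without the 3 libraries that stand apart, and leaving out each library gave 1 to 19. For KLRG1 in Tri PD1+ cells (0) DESeq2 called 1. For PD-1 in KLRG1- cells (1) it was 0 in libraries without an RNA number, 2 with only the groups compared, 2 by DESeq2 and 2 without the Iso PD1-KLRG1+ libraries; for the mean PD-1 contrast (2), leaving out each library gave 1 to 2. For Tri against Iso in KLRG1+ cells (2) it was 1 with RLE scaling, where the gene was Sdha and lower, 0 with no count filter, 0 with no name term, 1 in libraries without an RNA number, 0 with only the groups compared, 6 by DESeq2 (2 higher, and Ndufb10, Ndufs8, Sdha and Uqcrc1 lower) and 7 without the 3 libraries (6 higher and 1 lower, with 0 of them among the 2), and leaving out each library gave 0 to 5. For the interaction of KLRG1 and treatment (0) it was 1 by DESeq2, 6 without the 3 libraries and 0 to 3 leaving out each library. For the library names (15) it was 4 with no count filter, 33 by DESeq2 and 40 without the Iso PD1-KLRG1+ libraries, and 0 to 21 leaving out each library. The causes were not tested.

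With the replicate block, 0 genes were called for Tri against Iso in KLRG1+ cells and 7 for KLRG1 under Iso (6 of them among the 8). Of 31 pairs of libraries with the same number 9 deviated together with a correlation over 0.1 (median 0.02 under Iso and 0.05 under Tri). All 6 pairs of Tri number 4 were among the 9 (0.15 to 0.28), while no pair of Tri number 2 and none under Iso was. Pairs with different numbers had medians of -0.003 under Iso and -0.02 under Tri, where they reached 0.20. The titles repeat the numbers across the sorted classes. The check cannot exclude pairing, because deviations were taken from group means that mix libraries with and without an RNA number. The main fit does not pair the libraries, and the replicate block was an alternative. Depth limits Iso PD1-KLRG1+ library 3 most, with 93198 counts.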

Other observations

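Glycolysis genes were read from a list of 16, whose named members were chosen after values were seen. In the mean of the 2 PD-1 contrasts 6 of 16 were higher and none was lower (Tpi1, Gapdh, Pgk1, Aldoa, Ldha and Eno1), with 15 of 16 positive, a median log2 difference of 0.43 and 0.02 over all genes, of which 2.3% were called higher. In KLRG1+ cells alone 2 of 16 passed (Tpi1 and Gapdh), and in KLRG1- cells 1 of 16 (Tpi1). In the same mean contrast 2 of 15 myeloid markers (Cd74 and Fcer1g, 13 of 15 positive), 2 of 6 tested NK or innate-like markers (Klrb1b and Kit, 2 of 6 positive) and 1 of 5 CD4 or regulatory T cell markers (Ikzf4, 4 of 5 positive) were higher; their part in the glycolysis values was not tested. Tpi1, which interconverts the triose phosphates, was at 1074, 839, 1039, 729 and 576 CPM in Tri PD1+KLRG1- and at 576, 539, 488, 424 and 263 CPM in Tri PD1-KLRG1-. The lowest PD1+ and the highest PD1- library were both at 576 CPM after rounding and did not overlap, and the log2 difference was 0.90 ± 0.16 (edgeR adjusted p = 0.00171). In the libraries that carry an RNA number Gapdh and Aldoa were lower (-0.57 and -0.34 on the log2 scale).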
